A study of Homo sapiens with 12 samples.

Results

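Focal adhesions are the sites where integrins, the receptors for extracellular matrix, are tied through a layer of linker proteins to the ends of actin stress fibres. Talin and kindlin bind integrin tails and switch integrins on, integrin-linked kinase and paxillin build the layer beside the membrane, vinculin and tensin couple it to actin, and zyxin, filamin and the alpha-actinins sit on the actin side. Fibroblasts that become myofibroblasts are known for large adhesions and thick stress fibres that pull on the matrix. The 10 genes of this chain followed here at the RNA level were TLN1 (talin), FERMT2 (kindlin-2), ILK, PXN (paxillin), VCL (vinculin), TNS1 (tensin), ZYX (zyxin), FLNA (filamin A), ACTN1 and ACTN4 (alpha-actinins). They were chosen by gene symbol and linked to the count table by Entrez identifier, and all 10 were among the 20434 genes with a count and the 9490 genes tested.

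The cells were WI-38, a line of normal human lung fibroblasts, and each of the 4 groups held 3 flasks. D1+ TGF-β flasks had received transforming growth factor β (TGF-β) at 2 ng/mL for 1 day and D1 flasks a change of medium. D20+ TGF-β and D20 flasks were kept for 20 days with and without TGF-β, with medium and TGF-β renewed every other day. All flasks of a D20 group were seeded from 1 treated or 1 untreated flask, so p-values measure the spread between sister flasks of 1 cell line, and day and passage number cannot be told apart. Nor can TGF-β and parent flask at D20. D1 flasks were confluent when treated, and D20 flasks were seeded to end just short of confluence, so day and cell density cannot be told apart either. RNA was extracted from whole flasks, so a gene's value is a mean over all cells of a flask, and fewer cells of a type and less RNA per cell cannot be told apart.

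Library totals ranged from 8674488 to 18286197 counts, and the 10 genes had between 1214 and 67736 counts in each library. The coefficient of variation between flasks of a group was 0.295 to 16.5% (median 5.16%), and its lowest values, such as that of ILK in D1+ TGF-β, are below what counting error alone would give. The labelled cell type was visible in its markers: all 12 fibroblast genes passed the filter on low counts, whereas KRT5, KRT14, CDH5, LYZ and CD3E had no count in any library. Of the other markers, 6 of 8 epithelial, 3 of 5 endothelial and 3 of 5 immune genes stayed under 1 cpm (counts relative to library size) in every library, and the summed levels by library were 5.89 to 28.9 cpm for the epithelial and 38.6 to 62.8 cpm for the immune list. The endothelial list, almost entirely TEK, summed to 46.3 to 80.2 cpm in D1, 35.0 to 40.8 in D1+ TGF-β, 223 to 251 in D20 and 78.1 to 152 in D20+ TGF-β. ACTA2, the smooth muscle actin that marks myofibroblasts, was at 183 ± 52.9 cpm (SD, n = 3) in D1, 768 ± 79.4 in D1+ TGF-β, 287 ± 10.1 in D20 and 315 ± 37.4 in D20+ TGF-β. Its RNA was called higher with TGF-β at D1 (log2 fold change 2.07, edgeR with Benjamini-Hochberg adjustment, adjusted p = 2.28e-06) but not at D20 (0.13, adjusted p = 0.554), and of 8 genes known to respond to TGF-β, 7 were called higher at D1 and 4 at D20. The paper measured the ACTA2 protein. By western blot it was higher with TGF-β at D20, and by staining it was seen in most treated D20 cells and in none at D1. Of 6 smooth muscle genes, MYH11 and DES did not pass the filter on low counts. Of the other 4, ACTA2, CNN1 and TAGLN were called higher with TGF-β at D1, and CNN1 (-0.44, adjusted p = 0.00509) and LMOD1 (-2.24, adjusted p = 4.77e-09) lower at D20. All 4 were called lower after long than after short treatment, as were the 10 adhesion genes, and in the difference of the responses at D20 and D1, as were 5 of the 10, and their part in these results was not tested. Replicate 3 of D20+ TGF-β stood apart from its group (r = 0.982 with its other flasks over all genes tested), with 9 of the 10 adhesion genes above the mean of the other flasks, by a median of 0.13 on the log2 scale. In D1, replicate 2 stood apart over all genes (r = 0.978), and replicate 1 had 8 of the 10 genes above its other flasks, by a median of 0.19. Values without a library are given where they change a call.

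The genes were placed (hg19 coordinates, gene models of GENCODE on that build). TLN1 spans chr9:35696945-35732192, FERMT2 chr14:53323986-53419153, PXN chr12:120648242-120703574, TNS1 chr2:218664311-218898705, FLNA chrX:153576892-153603002 and ACTN1 chr14:69340845-69446157, all on the minus strand. ILK spans chr11:6624938-6632105, VCL chr10:75754951-75881121, ZYX chr7:143078388-143088204 and ACTN4 chr19:39138289-39222229, on the plus strand. Exons of ILK share 2375 bases with TAF10 on the other strand, those of PXN 1769 with PXN-AS1, those of VCL 1109 with AP3M1 and those of ACTN4 868 with CAPN12. The kit keeps strand, but whether counting used it is not given in the sources used here, so reads in these bases cannot be assigned with certainty.

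Many genes of stress fibres are controlled by serum response factor, which binds the CArG box, and some adhesion genes by TEAD factors, whose binding sites contain GGAATG. Both motifs were searched on both strands of RefSeq promoters (GRCh38.p14, 250 bases before to 50 after a start), of which 19 belonged to the 10 genes. A CArG box was found in 2 of the 19 (FLNA and 1 of the ACTN1 starts) and in 1.29% of all 35116 promoters. GGAATG was found in 5 of the 19, from TNS1, VCL, PXN and ACTN1, and in 14.0% of all promoters. The 250 bases before the start are shown for the FLNA promoter (chrX:154374635-154374884, minus strand) and the ACTN1 promoter (chr14:68977567-68977816, minus strand) because they hold the CArG boxes, and for VCL (chr10:73997866-73998115, plus strand) because it fell furthest with TGF-β at D20. Capitals mark the CArG box in FLNA, with its first base at -94, and in ACTN1, at -171, and GGAATG in VCL, at -171. A match is a description of the letters and no test of binding.
FLNA: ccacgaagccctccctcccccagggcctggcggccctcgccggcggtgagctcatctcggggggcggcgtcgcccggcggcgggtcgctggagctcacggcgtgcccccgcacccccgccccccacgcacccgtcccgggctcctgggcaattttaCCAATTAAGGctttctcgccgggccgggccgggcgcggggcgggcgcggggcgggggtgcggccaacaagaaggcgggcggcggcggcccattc
ACTN1: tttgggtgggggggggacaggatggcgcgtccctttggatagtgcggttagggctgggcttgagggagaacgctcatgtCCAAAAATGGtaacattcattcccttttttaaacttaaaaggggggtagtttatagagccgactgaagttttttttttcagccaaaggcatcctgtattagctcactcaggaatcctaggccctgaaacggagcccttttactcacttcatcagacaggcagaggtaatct
VCL: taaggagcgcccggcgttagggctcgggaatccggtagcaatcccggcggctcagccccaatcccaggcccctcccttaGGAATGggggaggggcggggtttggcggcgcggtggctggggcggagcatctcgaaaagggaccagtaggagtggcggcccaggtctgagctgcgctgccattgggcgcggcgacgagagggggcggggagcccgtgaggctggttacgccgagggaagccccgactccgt

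The RNAs differed widely in level. On the scale of cpm per kilobase of the canonical transcript, FLNA was highest in every group (352 ± 47.8 in D1, 449.8 ± 1.82 in D1+ TGF-β, 300.04 ± 7.50 in D20 and 289 ± 34.6 in D20+ TGF-β) and ACTN1 came next (243 ± 14.7, 333 ± 5.33, 240.3 ± 3.44 and 175 ± 4.88). TNS1 was lowest in every group, from 11.8 ± 1.08 in D1 to 28.1 ± 1.48 in D1+ TGF-β. Between them, VCL, ZYX, ILK, TLN1 and ACTN4 lay at 106 to 147 in D1, and neighbours in this order overlapped between flasks there and in D20+ TGF-β. ZYX came after ACTN1 in D1+ TGF-β, at 192 ± 9.63, with all of its flasks above those of VCL, and after VCL in the other 3 groups. On this scale FERMT2 was below PXN in D1 only, at 35.8 ± 3.53 against 46.1 ± 5.12, and above it in the other groups, with no overlap of flasks in any of them. The order of genes depends on the length used. All annotated exons together span 8463 bases in FERMT2 and 14320 in ACTN1, against 3286 and 3722 in the canonical transcript. For PXN these are 7460 and 5214, and for ACTN4 6125 and 4990. In cpm not divided by length, FERMT2 was below PXN in every group.

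**Figure D1:**
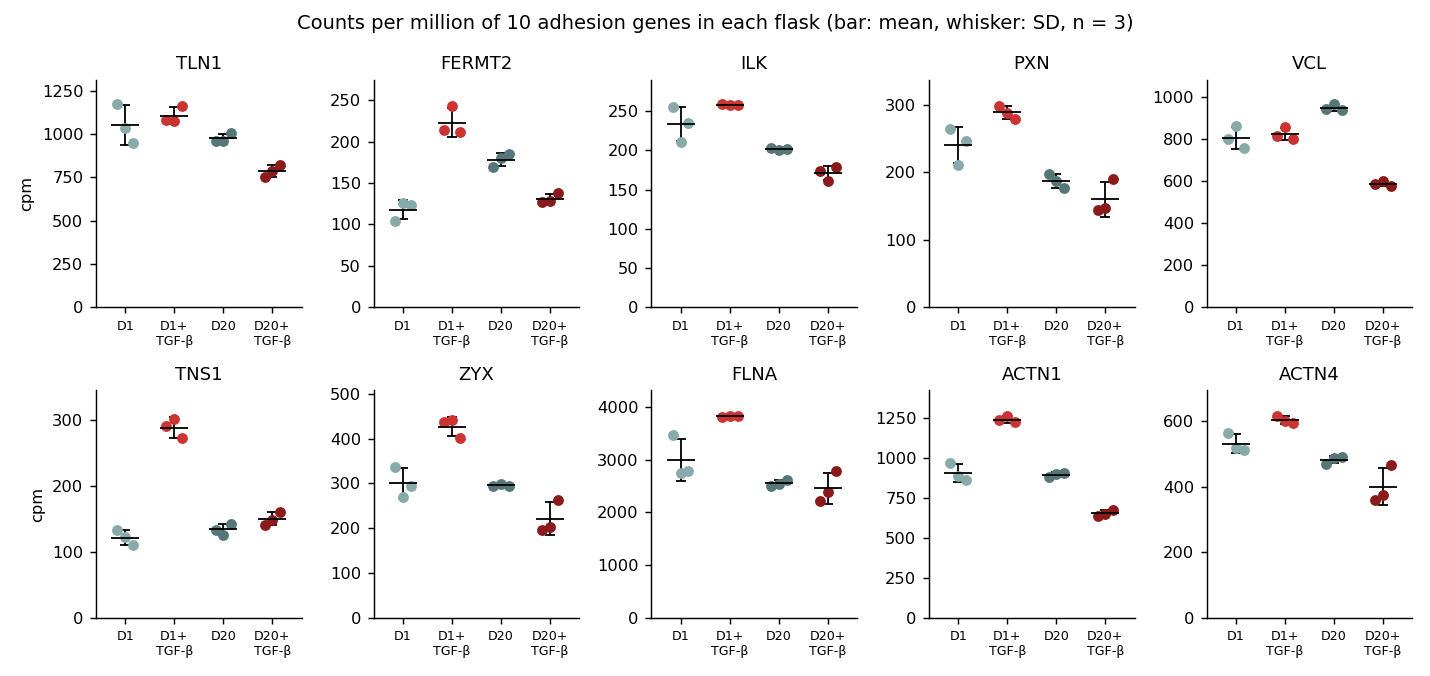
Level of each gene (cpm, y axis from 0) in each flask (points) of the 4 groups, left to right D1, D1+ TGF-β, D20, D20+ TGF-β, with the group mean (bar) and SD (whisker, n = 3). All 3 D1+ TGF-β flasks of TNS1, FERMT2, ZYX and ACTN1 lie above those of the other groups, as do those of FLNA, PXN, ACTN4 and ILK. The D20+ TGF-β flasks of VCL, between 576 and 600.3 cpm, lie below all others, as do those of TLN1, ILK, ZYX, ACTN1 and ACTN4.

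D1+ TGF-β vs D1 asked what short treatment changed. TNS1, FERMT2, ZYX and ACTN1 were upregulated and none of the 10 genes was downregulated at an adjusted p under 0.01. Of all genes tested, 6.89% were called higher and 13.4% in either direction (1271 genes). This count was 1875 without D1 replicate 2, and 735 without replicate 1 and 619 without replicate 2 of D1+ TGF-β. All 10 log2 fold changes were above 0, with a median of 0.31 against -0.017 over all genes, and in 8 of the 10 genes the treated flasks lay wholly above the untreated ones, which held for 17.6% of all genes. The genes called were a tensin, a kindlin, a stress fibre LIM protein and an actin cross-linker, so they came from both the integrin and the actin side of the chain.

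Of the integrin activators, FERMT2 was called and TLN1 was not. FERMT2, whose product binds integrin tails beside talin, had 104, 125 and 123 cpm in the D1 flasks and 214, 243 and 212 in the D1+ TGF-β flasks. The lowest treated flask was well above the highest untreated one, and the fitted increase was 1.90-fold (log2 fold change 0.92 ± 0.084 SE, adjusted p = 5.94e-06). TLN1, the talin that opens integrins, had 1173, 1034 and 948 cpm in D1 and 1081, 1074 and 1163 in D1+ TGF-β. The TLN1 flasks overlapped, and the log2 fold change of 0.073 had a 95% interval of -0.10 to 0.25 (adjusted p = 0.560).

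ILK and PXN, the scaffold and adaptor beside the integrin, were not called. ILK had 255, 211 and 235 cpm in D1 and 259, 257 and 258 in D1+ TGF-β, a log2 fold change of 0.15 ± 0.073 (adjusted p = 0.170). PXN had 264, 211 and 246 cpm in D1 and 298, 288 and 279 in D1+ TGF-β, a log2 fold change of 0.26 ± 0.11 (adjusted p = 0.0883). In both genes every treated flask was above every untreated one, and the D1 flasks spread more than the treated ones.

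Of the linkers to actin, TNS1 had the largest and VCL the smallest log2 fold change of the 10 genes. TNS1, which joins integrin tails to actin in mature adhesions, had 133, 123 and 111 cpm in D1 and 292, 303 and 273 in D1+ TGF-β, an increase of 2.37-fold (log2 fold change 1.25 ± 0.084, adjusted p = 3.16e-07). VCL, which binds talin under tension, had 801, 862 and 758 cpm in D1 and 818, 856 and 803 in D1+ TGF-β. The VCL flasks overlapped and the interval of the log2 fold change ran from -0.11 to 0.18 around 0.033 (adjusted p = 0.759).

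On the actin side, ZYX and ACTN1 were upregulated. ZYX, which is recruited to strained stress fibres, had 336, 270.0 and 294 cpm in D1 and 438, 441 and 402 in D1+ TGF-β (log2 fold change 0.51 ± 0.11, adjusted p = 0.00375). ACTN1, a cross-linker of actin filaments, had 964, 884 and 860.1 cpm in D1 and 1234, 1259 and 1220.3 in D1+ TGF-β (0.46 ± 0.067, adjusted p = 0.000272). For both, treated and untreated flasks were apart. The paralogue ACTN4 had 565, 518 and 511 cpm in D1 and 617, 601 and 596 in D1+ TGF-β and was not called (0.19 ± 0.089, adjusted p = 0.148). FLNA, the large actin cross-linker that also binds integrins, had 3463, 2740.1 and 2781 cpm in D1 and 3811, 3842 and 3826 in D1+ TGF-β. Its log2 fold change of 0.35 ± 0.10 missed the threshold (adjusted p = 0.0230) and passed it without D1 replicate 1, its highest D1 flask (adjusted p = 0.00451), or without D20+ TGF-β replicate 3 (adjusted p = 0.00829). FLNA also passed it with DESeq2 in place of edgeR (adjusted p = 0.00343). The call of ZYX was lost without D1 replicate 3 (adjusted p = 0.0131), D1+ TGF-β replicate 1 (0.0187) or D1+ TGF-β replicate 2 (0.0215).

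D20+ TGF-β vs D20 asked what long treatment changed beyond time in culture. VCL, ACTN1, FERMT2, ZYX and TLN1 were downregulated, and none of the 10 genes was upregulated. Of all genes tested, 14.7% were called lower and 27.5% in either direction. The log2 fold change was below 0 in 9 of the 10 genes, with a median of -0.29 against 0.0090 over all genes, and in 7 of the 10 the treated flasks lay wholly below the untreated ones, as in 29.7% of all genes. Beside this, the 10 proliferation genes, all called higher with TGF-β at D20, summed to 144 to 179.5 cpm in D20 and 327 to 556 in D20+ TGF-β, and their part in the result was not tested.

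VCL fell furthest. It had 946, 966 and 939 cpm in D20 and 589, 600.3 and 576 in D20+ TGF-β, 38.1% lower in the fit (log2 fold change -0.69 ± 0.068, adjusted p = 4.22e-06). The flasks of each group lay close together, the gap between the groups was far larger than their spread, and the call held in every alternative. The paper's own analysis of these RNA-seq data also had VCL downregulated in this comparison. Its real-time PCR gave a VCL difference of the same direction that was not significant. Its western blots showed no change in the VCL protein. TNS1, the other linker, was the only one of the 10 genes with a log2 fold change above 0. It had 133, 126 and 143 cpm in D20 and 141, 149 and 161 in D20+ TGF-β, overlapping groups with a log2 fold change of 0.16 ± 0.083 and an interval of -0.02 to 0.34 (adjusted p = 0.134).

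The integrin activators both fell. FERMT2 had 169, 180.2 and 185 cpm in D20 and 127, 128 and 138 in D20+ TGF-β (log2 fold change -0.45 ± 0.084, adjusted p = 0.000842). TLN1 had 959.6, 959 and 1004 cpm in D20 and 749, 785 and 822 in D20+ TGF-β (-0.31 ± 0.083, adjusted p = 0.00844). Treated and untreated flasks were apart in both, but the TLN1 call lay close to the threshold: it was lost in 13 of the 21 alternatives, with an adjusted p of up to 0.0450, among them those without any 1 of the D20 libraries, of the D1+ TGF-β libraries or of replicates 1 and 2 of D20+ TGF-β (0.0119 to 0.0450). ILK had 204, 201 and 202 cpm in D20 and 173, 161 and 179 in D20+ TGF-β, apart in every flask but not called (-0.24 ± 0.074, adjusted p = 0.0193). It passed the threshold without D1 replicate 1 (adjusted p = 0.00726) or D1 replicate 2 (0.00722), and in a fit of only the groups compared (0.00935). PXN had 197, 187 and 177 cpm in D20 and 143, 146 and 189 in D20+ TGF-β, where replicate 3 alone reached the untreated range (-0.23 ± 0.11, adjusted p = 0.106). Without that library the PXN log2 fold change was -0.37 (adjusted p = 0.00638).

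On the actin side, ACTN1 had 879.9, 899 and 904 cpm in D20 and 637, 647 and 672 in D20+ TGF-β (log2 fold change -0.46 ± 0.067, adjusted p = 0.000123), a fall of about the size of its rise at D1. ZYX had 294, 299 and 295 cpm in D20 and 197, 203 and 263 in D20+ TGF-β (-0.42 ± 0.11, adjusted p = 0.00646). Replicate 3 of ZYX lay above its sister flasks, though still below D20. The ZYX call was lost in 10 of the 21 alternatives (adjusted p up to 0.0390), among them those without any 1 of the D20 libraries (0.0214 to 0.0237), of replicates 1 and 2 of D20+ TGF-β (0.0390 and 0.0315) or of replicates 1 and 2 of D1+ TGF-β (0.0109 and 0.0106). ACTN4 had 470.1, 489 and 490.3 cpm in D20 and 361, 374 and 465 in D20+ TGF-β. ACTN4 was not called (-0.27 ± 0.090, adjusted p = 0.0258) and was called without replicate 3 of D20+ TGF-β (-0.40, adjusted p = 0.000771). FLNA had 2502, 2531 and 2624 cpm in D20 and 2215, 2382 and 2788 in D20+ TGF-β, overlapping groups with an interval of -0.27 to 0.17 around -0.052 (adjusted p = 0.712). Without replicate 3 of D20+ TGF-β, 7 of the 10 genes were called, all lower, in place of 5, and 3 were called without any 1 of the D20 libraries, of replicates 1 and 2 of D20+ TGF-β or of replicates 1 and 2 of D1+ TGF-β. Over all genes, the 2609 calls became 2269 without replicate 3 of D20+ TGF-β. They became 1983, 1795 and 1799 without D20 replicates 1, 2 and 3, and 1967 and 2077 without replicates 1 and 2 of D20+ TGF-β. Without replicates 1 and 2 of D1+ TGF-β they were 2327 and 2358.

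**Figure D2:**
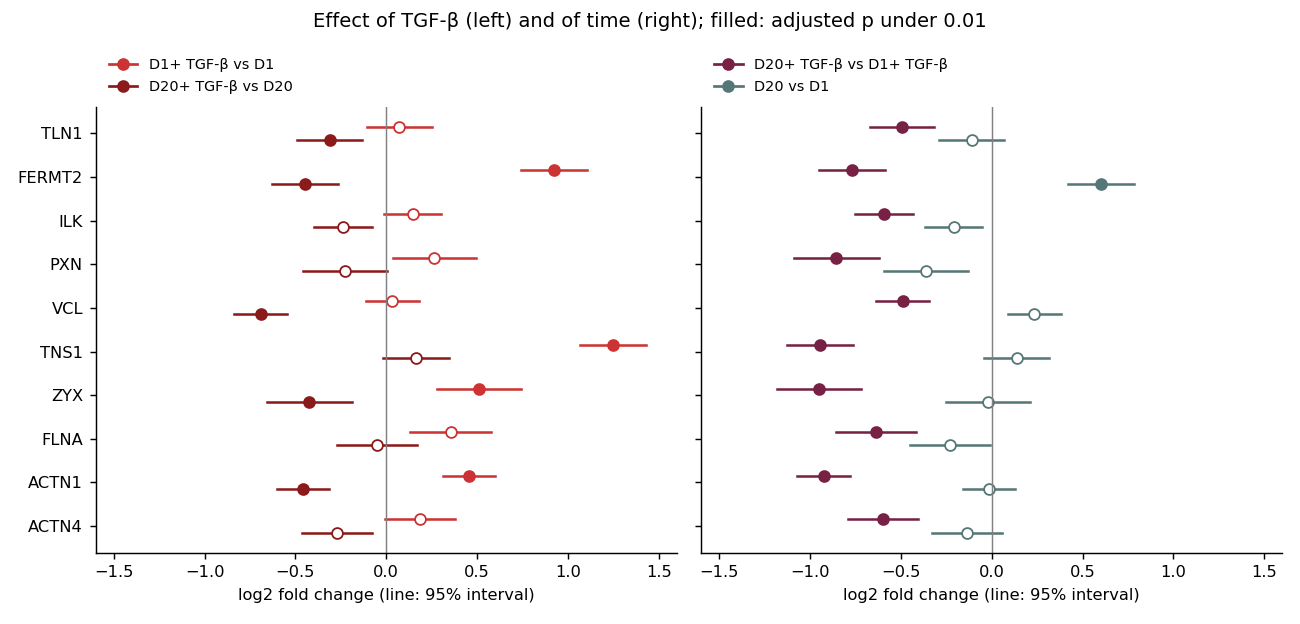
Log2 fold change (x axis) of each gene with its 95% interval (line) for TGF-β against no TGF-β at D1 and D20 (left) and for D20 against D1 with and without TGF-β (right), filled where the adjusted p is under 0.01. With TGF-β, 4 genes were called higher at D1 and 5 lower at D20, and over time all 10 were called lower with TGF-β and only FERMT2, higher, without it.

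The difference of the responses, D20 minus D1, was tested directly. It was below 0 in all 10 genes (median -0.61 against 0.017 over all genes) and was called in FERMT2, TNS1, ZYX, ACTN1 and VCL, against 5.87% of all genes called lower and 10.4% in either direction. The 985 calls over all genes became 1731 without D1 replicate 2, 632 and 549 without replicates 1 and 2 of D1+ TGF-β, and 623 and 561 without replicates 2 and 3 of D20. FERMT2 had the largest difference (-1.37 ± 0.12, adjusted p = 9.23e-06), since it was called higher at D1 and lower at D20. ZYX (-0.93 ± 0.15, adjusted p = 0.000950) and ACTN1 (-0.91 ± 0.094, adjusted p = 3.86e-05) also had calls of opposite direction at the 2 times. TNS1 (-1.08 ± 0.12, adjusted p = 5.37e-05) was called higher at D1 only, and VCL (-0.73 ± 0.096, adjusted p = 0.000218) lower at D20 only. These 5 calls held in every alternative. For ILK, TLN1, FLNA, ACTN4 and PXN the differences were -0.38 to -0.49 and the adjusted p 0.0188 to 0.0627. Without D1 replicate 1, TLN1 (adjusted p = 0.00656) and ILK (0.00511) were called too, and without D20+ TGF-β replicate 3, PXN (0.00240) and ACTN4 (0.000847). With DESeq2 in place of edgeR, ILK (adjusted p = 0.00542) and ACTN4 (0.00586) were called too. Over all genes, the calls were 957 without D1 replicate 1, 1106 without D20+ TGF-β replicate 3 and 1362 with DESeq2.

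**Figure D3:**
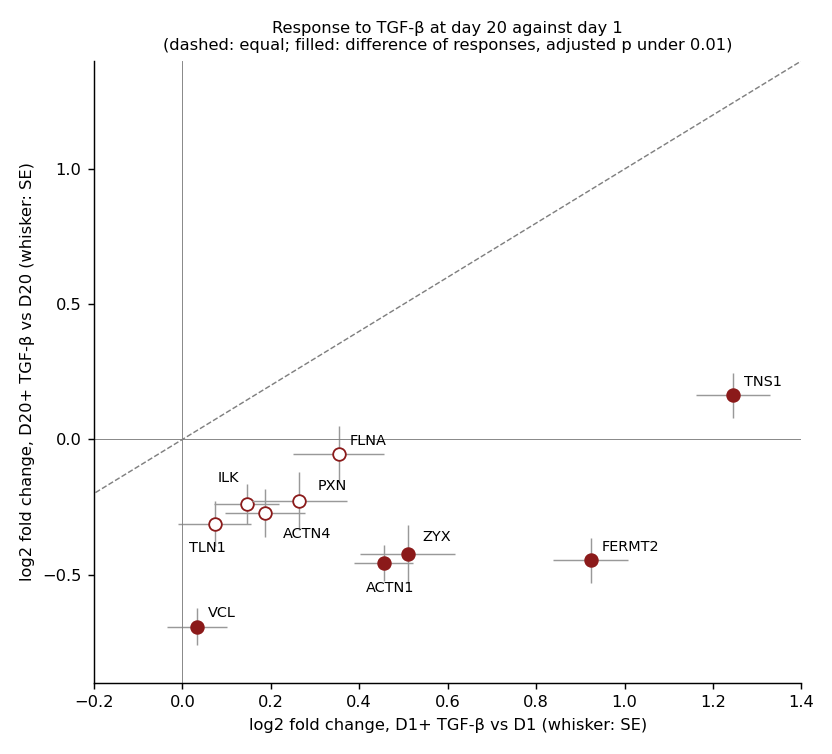
Log2 fold change with TGF-β at D20 (y axis) against that at D1 (x axis) for each gene, with SE whiskers, the dashed line marking equal responses and filled points a called difference. All 10 genes lie below the dashed line, FERMT2 furthest, and TNS1 alone lies above 0 on both axes.

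D20+ TGF-β vs D1+ TGF-β compared long with short treatment. All 10 genes were downregulated, where 17.7% of all genes were called lower and 34.8% in either direction, and in all 10 the D20+ TGF-β flasks lay wholly below the D1+ TGF-β flasks, as in 31.5% of all genes. The log2 fold changes ran from -0.49 in VCL (adjusted p = 7.02e-05) and TLN1 (-0.49, adjusted p = 0.000296) to -0.95 in ZYX (adjusted p = 1.59e-05), with a median of -0.70 against 0.010 over all genes. TNS1 fell from 289 ± 15.3 to 150.5 ± 10.01 cpm (-0.94 ± 0.083, adjusted p = 2.73e-06) and ACTN1 from 1238 ± 19.8 to 652 ± 18.2 (-0.92 ± 0.067, adjusted p = 7.41e-07). PXN fell from 288 ± 9.57 to 159.6 ± 25.9 cpm (-0.85 ± 0.11, adjusted p = 3.60e-05) and FERMT2 from 223 ± 17.4 to 131 ± 6.01 (-0.77 ± 0.084, adjusted p = 1.22e-05). FLNA (-0.64), ACTN4 (-0.60) and ILK (-0.59) fell by 33.7 to 35.7% in the fit. All 10 were called in every alternative. The paper also found VCL lower here by RNA-seq, and its real-time PCR gave no significant difference. The 10 proliferation genes were all called lower in the same comparison and summed to 965 to 1063 cpm in D1+ TGF-β and 327 to 556 in D20+ TGF-β, and their part in the result was not tested.

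D20 vs D1 asked what time in culture changed without TGF-β. Only FERMT2 was called, upregulated from 118 ± 11.6 to 178 ± 8.12 cpm (log2 fold change 0.60 ± 0.084, adjusted p = 5.79e-05), where 18.9% of all genes were called higher and 36.4% in either direction. The median over the 10 genes was -0.065, against 0.013 over all genes. VCL was the other gene whose D20 flasks all lay above D1 (807 ± 51.9 against 950.2 ± 14.2 cpm, 0.24 ± 0.068, adjusted p = 0.0105), which held for 29.4% of all genes. ILK, PXN, FLNA and ACTN4 lay wholly below D1 (26.2% of all genes), with log2 fold changes of -0.14 in ACTN4 to -0.36 ± 0.11 in PXN (adjusted p = 0.0124). Without D1 replicate 2, VCL (adjusted p = 0.00231), PXN (0.00203) and ILK (0.00170) were called as well, and without D20+ TGF-β replicate 3 VCL (0.00920) and PXN (0.00203). With DESeq2 in place of edgeR, VCL (adjusted p = 0.0015) and PXN (0.00351) were called. Over all genes, the 3457 calls became 4003 without D1 replicate 2, 3650 without D20+ TGF-β replicate 3 and 3648 with DESeq2. ZYX (-0.019, interval -0.25 to 0.21) and ACTN1 (-0.013, interval -0.16 to 0.13) had overlapping flasks. The proliferation genes, all 10 called lower in this comparison too, summed to 854 to 1359 cpm in D1 and 144 to 179.5 in D20, and their part was not tested.

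Of the genes that work with this chain, 76 were listed in 5 groups and 64 were tested. With TGF-β at D1, 13 of the 64 were called higher and 5 lower, and at D20 6 higher and 31 lower. These are 20.3% and 7.81% at D1 and 9.38% and 48.4% at D20, beside 6.89% and 6.5% and 12.8% and 14.7% of all genes. With 1 library left out, 10 to 17 were called higher and 3 to 10 lower at D1, and 3 to 6 higher and 22 to 33 lower at D20. The 5 lower at D1 became 10 without D1 replicate 3 and 3 without replicate 1 or 2 of D1+ TGF-β, and the 6 higher at D20 became 3 without D20 replicate 2. The difference of the responses was called higher in 1 and lower in 24 of the 64 (1.56% and 37.5%), beside 4.51% and 5.87% of all genes. Without TGF-β, D20 vs D1 called 19 of the 64 higher and 7 lower (29.7% and 10.9%). With 1 library left out, these were 14 to 22 and 3 to 11. Of all 9490 genes, 18.9% were called higher there, 1668 genes were called lower, and 36.4% were called in either direction. With 1 library left out, the calls in either direction over all genes ran from 2470 to 4003. In the lists below, a rise or fall at a time is against the untreated flasks of that time. The 64 genes were not tested as a set.

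The partners of ILK and talin moved unevenly. Of 9 tested, 2 were called higher at D1, beside 6.89% of all genes. At D20, 1 was called higher and 4 lower, beside 12.8% and 14.7% of all genes. The median log2 fold changes were 0.19 at D1 and -0.14 at D20. LIMS1 encodes PINCH1, which binds ILK together with parvin, and was upregulated at both times, from 80.3 ± 17.1 to 237 ± 11.7 cpm at D1 (1.56 ± 0.12, adjusted p = 7.64e-07) and from 82.6 ± 2.92 to 167 ± 3.34 at D20 (1.02 ± 0.12, adjusted p = 1.43e-05). Its paralogue LIMS2 fell at D20, from 31.8 ± 1.70 to 14.9 ± 2.30 cpm (-1.11 ± 0.13, adjusted p = 1.92e-05). RSU1, which binds PINCH1, rose at D1 (0.40 ± 0.068, adjusted p = 0.000822) and fell at D20 (-0.45 ± 0.068, adjusted p = 0.000154). PARVA, the parvin that links ILK to actin, fell at D20 from 370.3 ± 4.14 to 276 ± 7.29 cpm (-0.43 ± 0.059, adjusted p = 7.72e-05), and its log2 fold change at D1 was 0.10 (adjusted p = 0.226). PARVA was at 265 ± 7.48 cpm in D1 and 284 ± 5.43 in D1+ TGF-β. Without TGF-β it was called higher in D20 than in D1 (0.48 ± 0.059, adjusted p = 1.78e-05).

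Of the other members of the same protein families, 2 of 12 rose and 2 fell at D1, beside 6.89% and 6.5% of all genes. At D20, 2 rose and 6 fell, beside 12.8% and 14.7% of all genes. FLNC, the filamin of muscle, fell at D20 from 784 ± 30.4 to 410.4 ± 84.3 cpm (-0.93 ± 0.12, adjusted p = 5.97e-05). TNS2 went the other way from TNS1 at D1, from 51.7 ± 12.7 to 25.4 ± 1.82 cpm (-1.03 ± 0.16, adjusted p = 0.000350). TNS2 was also called lower at D20 (-0.58 ± 0.15, adjusted p = 0.00634), and the difference of its responses was not called (adjusted p = 0.152). LPXN, leupaxin of the paxillin family, rose at both times, from 30.9 ± 3.53 to 50.5 ± 3.07 cpm at D1 (0.71 ± 0.15, adjusted p = 0.00445) and from 12.7 ± 1.84 to 36.7 ± 9.24 at D20 (1.55 ± 0.17, adjusted p = 9.30e-06), and the difference of these responses was not called (adjusted p = 0.0187). FBLIM1, which joins kindlin to filamin, fell at D20 from 149.9 ± 2.62 to 70.9 ± 4.27 cpm (-1.08 ± 0.070, adjusted p = 1.19e-07). FBLIM1 was at 81.6 ± 6.03 cpm in D1 and 94.4 ± 2.83 in D1+ TGF-β.

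Of 18 kinases and adaptors, 0 were called higher at D1, beside 6.89% of all genes, and 2 were called lower, beside 6.5%. These were the kinase gene SRC (-0.44 ± 0.10, adjusted p = 0.00783) and GIT1 (-0.37 ± 0.073, adjusted p = 0.00234). SRC was also called lower at D20 (-0.43 ± 0.10, adjusted p = 0.00438), and GIT1 was not called there (-0.06, adjusted p = 0.507). At D20, 1 of the 18 rose and 7 fell, beside 12.8% and 14.7% of all genes. The scaffold gene NEDD9 fell from 59.9 ± 3.88 to 28.5 ± 12.0 cpm (-1.09 ± 0.22, adjusted p = 0.00163), SHC1 from 785 ± 9.12 to 520.4 ± 12.0 (-0.59 ± 0.072, adjusted p = 2.80e-05) and GIT2 by 0.48 on the log2 scale (adjusted p = 9.32e-05), while PAK1 rose from 33.6 ± 1.81 to 51.0 ± 14.1 cpm (0.60 ± 0.16, adjusted p = 0.00890).

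The actin anchoring and stress fibre adaptors, the largest group, had 9 higher and 1 lower of 22 at D1 and 2 higher and 13 lower at D20 called (medians 0.23 and -0.44). Of all genes, 6.89% were called higher and 6.5% lower at D1, and 12.8% higher and 14.7% lower at D20. CSRP2 and PDLIM5, LIM proteins of the actin cytoskeleton, rose at D1 by 1.38 ± 0.21 (adjusted p = 0.000333) and 1.11 ± 0.10 (adjusted p = 6.30e-06) on the log2 scale. CSRP2 was also called higher at D20 (0.92 ± 0.22, adjusted p = 0.00403), and the difference of its responses was not called (adjusted p = 0.297). PDLIM5 was not called at D20 (0.17 ± 0.10, adjusted p = 0.203), and the difference of its responses was (-0.94 ± 0.15, adjusted p = 0.000729). At D20 the largest falls were in FHL1, from 239 ± 16.3 to 63.6 ± 6.97 cpm (-1.91 ± 0.13, adjusted p = 1.58e-07), and the stress fibre gene SYNPO, from 95.8 ± 6.77 to 28.8 ± 5.62 (-1.73 ± 0.14, adjusted p = 5.18e-07). FHL1 was at 108 ± 22.1 cpm in D1 and 58.3 ± 5.72 in D1+ TGF-β. It was called lower at D1 too (-0.90 ± 0.13, adjusted p = 0.000261). SYNPO was at 45.2 ± 7.25 cpm in D1 and 31.8 ± 2.80 in D1+ TGF-β. Without TGF-β, FHL1 (1.14, adjusted p = 8.10e-06) and SYNPO (1.08, adjusted p = 1.60e-05) were called higher in D20 than in D1. With TGF-β, neither was called over time (adjusted p = 0.441 and 0.424). PDLIM1, which binds alpha-actinin, fell from 553 ± 16.8 to 195 ± 7.17 cpm (-1.50 ± 0.081, adjusted p = 1.96e-08), and its D20+ TGF-β level lay near those of D1 (175 ± 19.7) and D1+ TGF-β (171 ± 5.06). SYNPO2 fell from 49.9 ± 6.59 to 22.2 ± 2.34 cpm (-1.17 ± 0.22, adjusted p = 0.000927), and was at 24.2 ± 9.64 in D1 and 24.1 ± 0.737 in D1+ TGF-β. SRF, the gene of serum response factor, was 56.7 ± 5.82 cpm in D1, 68.3 ± 4.16 in D1+ TGF-β, 54.7 ± 2.45 in D20 and 44.1 ± 2.02 in D20+ TGF-β. It was not called at D1 (0.27 ± 0.083, adjusted p = 0.0298) and fell at D20 (-0.31 ± 0.084, adjusted p = 0.00910). Its coactivators MKL1 (0.35, adjusted p = 0.0122, and -0.09, adjusted p = 0.450) and MKL2 (-0.16, adjusted p = 0.295, and -0.18, adjusted p = 0.183) were called at neither time.

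**Figure D4:**
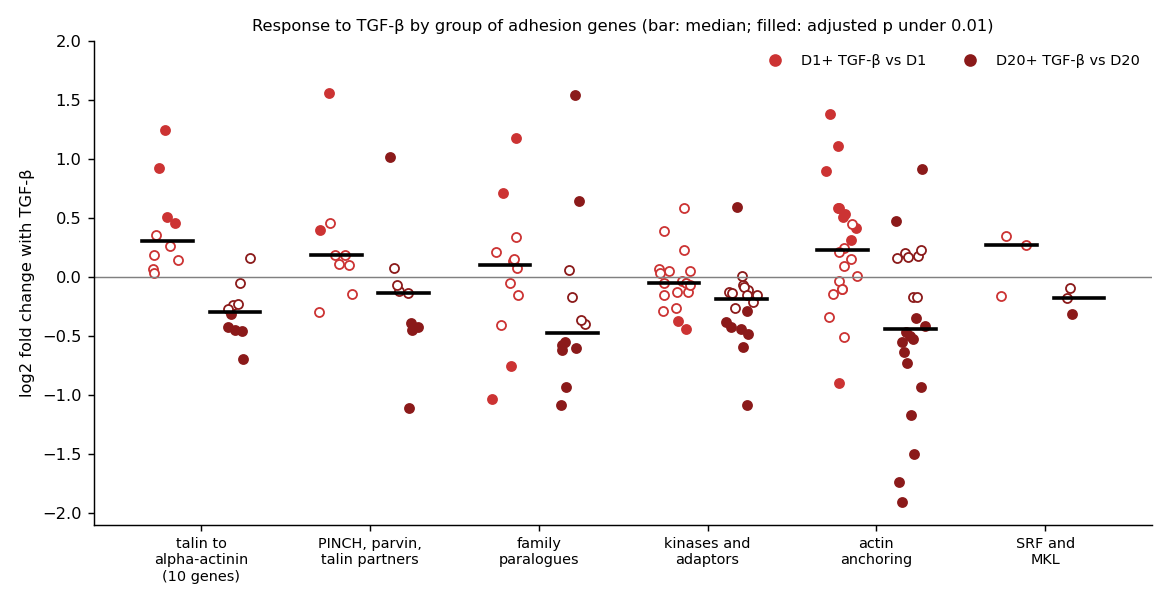
Log2 fold change with TGF-β (y axis) of each gene (points) at D1 and D20 for the 10 genes and the 5 groups of related genes, with the median (bar) and filled points where the adjusted p is under 0.01. The medians of the 10 genes go from 0.31 at D1 to -0.29 at D20, and those of the actin anchoring group from 0.23 to -0.44.

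Levels of the 10 genes across the 12 libraries were compared as a description, with Pearson's r of log2 cpm. The libraries fall into the same 4 groups for every gene, so r includes the group pattern, and they differ in depth. Over the 45 pairs, r ran from 0.038 (VCL and TNS1) to 0.97 (ILK and PXN, and ZYX and ACTN1), with a median of 0.77 and 21 pairs over 0.8. Of the genes tested outside the 10, the most alike to ZYX was PTRF, a coat protein of caveolae (r = 0.99), followed by PDLIM7, which was also the most alike to ACTN1 (r = 0.98). ACTN4 was most like ACTB, cytoplasmic beta-actin (r = 0.99), which was at 4805 cpm in D1, 5624 in D1+ TGF-β, 4358 in D20 and 3152 in D20+ TGF-β. TLN1 was most like MAP7D1 (r = 0.99), PXN like TUBB6, a tubulin (r = 0.99), ILK like NF2 (r = 0.98) and FERMT2 like PPP3CA (r = 0.97). VCL was most like KCTD20 (r = 0.97), and A2M, the second, had a far larger range, 488 cpm in D20 and 19.6 in D20+ TGF-β. TNS1 was most like STARD4-AS1 (r = 0.98), at 46.3 cpm in D1+ TGF-β and 11.3 to 18.1 in the other groups. FLNA was most like TMEM106A (r = 0.97).

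Summed over the 10 genes, the level was 7301 ± 659 cpm in D1, 9086 ± 68.8 in D1+ TGF-β, 6852 ± 105 in D20 and 5720.3 ± 478 in D20+ TGF-β. FLNA made up 40.9% ± 1.89 of the sum in D1, 42.1% ± 0.227 in D1+ TGF-β, 37.2% ± 0.377 in D20 and 42.9% ± 1.53 in D20+ TGF-β. The ratio of ACTN1 to ACTN4 per length of the canonical transcript was 2.28 ± 0.0177 in D1, 2.75 ± 0.0657 in D1+ TGF-β, 2.48 ± 0.0236 in D20 and 2.21 ± 0.236 in D20+ TGF-β. Its size depends on the length used, and its relative change between groups does not. Both pairs of treated and untreated flasks were apart in this ratio, higher with TGF-β at D1 and lower at D20, where replicate 3 of D20+ TGF-β was lowest at 1.94.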

How the data were processed

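RNA of 12 flasks was sequenced in paired ends from a directional kit, each library on 4 lanes. Per the authors, Trimmomatic trimmed the reads and Rsubread aligned them to hg19. The counting program, annotation and use of strand are not given in the sources used here. The tables the authors deposited hold whole-number counts of 25702 genes for every lane, not normalised, and log2 cpm values from voom for 9412 genes. Columns were matched to flasks by name, and 0 were left unassigned.

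Counts of the 4 lanes were summed. A gene was tested if 6 or more libraries had 10 cpm or more (9490 of 20434) in R 4.3.3 with edgeR 4.0.16: TMM factors, 1 quasi-likelihood fit over all 12 libraries, Benjamini-Hochberg adjustment over the genes tested and an adjusted p under 0.01 for a call. Levels are cpm on TMM-scaled library sizes. A standard error is the absolute log2 fold change divided by the root of F. On simulated data for D20+ TGF-β vs D20, with 9490 genes, 52% of genes changed by 0.5 and 99% of those changed by 1 on the log2 scale were called. Names came from the deposited log2 table for 9240 of the tested genes and from RefSeq for 196, and 54 stayed unnamed. Lengths are of the Ensembl canonical transcript in GENCODE on hg19; RefSeq promoters matched all 10 genes.

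The 10 genes and the lists were chosen with earlier results of these data known. Of each list, up to 4 genes called at D20 and up to 2 at D1 with the largest log2 fold changes were named (1 such gene is not reported here), every gene of the SRF list, and for each of the 10 genes up to 3 most alike genes. The alternatives were DESeq2 1.42.0, limma 3.58.1 in 3 forms (voom on 12 libraries, on 48 lanes, and the deposited log2 values), a fit without the gene filter, RLE factors, no composition factor, a replicate block, a fit of only the groups compared, and each library left out.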

Additional observations from a re-analysis of the deposited data

Results flagged for a closer look

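For 5 of the 10 genes, the response to TGF-β at D20 differed from that at D1 by the test of the difference itself (edgeR, Benjamini-Hochberg adjusted over all genes tested, D20 minus D1). The differences on the log2 scale were -1.37 for FERMT2, -1.08 for TNS1, -0.93 for ZYX, -0.91 for ACTN1 and -0.73 for VCL, each with 3 flasks in each of the 4 groups.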

How the results depend on the processing

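Of 1040 values of single genes under alternatives, 963 kept their direction and their side of the threshold, 26 lost the call (TLN1 13 and ZYX 10 in D20+ TGF-β vs D20, ZYX 3 in D1+ TGF-β vs D1), 45 gained it (20 of them with 48 lanes as samples) and 6 reversed, none of them called. The reversed values were VCL in D1+ TGF-β vs D1 with no composition factor (-0.030) and without D1 replicate 3 (-0.0095; range with 1 library left out up to 0.092), FLNA in D20+ TGF-β vs D20 without D20+ TGF-β replicate 1 (0.028; from -0.15), and in D20 vs D1 without D1 replicate 1 ZYX (0.071; from -0.11) and ACTN1 (0.037; from -0.047), and ACTN1 without D20 replicate 1 (0.0016). With 48 lanes as samples, which counts lanes of 1 flask as replicates, the genes called were 8 in D1+ TGF-β vs D1, 9 in D20+ TGF-β vs D20, 8 in D20 vs D1 and 10 in the difference of responses, against 4, 5, 1 and 5. D20+ TGF-β vs D20 gave 3 with no composition factor and 3 with a replicate block. D20 vs D1 gave 3 with DESeq2, 2 with limma-voom, 3 with no composition factor and 2 with no gene filter; apart from the lanes, the causes were not tested. With 1 library left out, the counts ran from 3 to 5 in D1+ TGF-β vs D1, 3 to 7 in D20+ TGF-β vs D20, 1 to 4 in D20 vs D1, 5 to 7 in the difference, and over time with TGF-β stayed at 10. Over all genes, the calls ran in the same order from 619 to 1875, 1795 to 3288, 2470 to 4003, 549 to 1731 and 2275 to 4018.

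Replicate numbers were not treated as pairs in the main fit. Over 18 pairs of the same number, the correlation of deviations ran from -0.22 to 0.32 and exceeded 0.1 in 4. Pairs of different number were not compared, so these values cannot show that pairing was absent. The replicate block changed the calls of TLN1 (adjusted p = 0.0171) and ZYX (0.0105) in D20+ TGF-β vs D20 and no other call of the 10 genes, and over all genes it gave 2379 calls there against 2609. With no composition factor the median of all genes in the difference of responses moved from 0.017 to 0.13, and calls higher and lower in D1+ TGF-β vs D1 were 500 and 938 against 654 and 617, in D20+ TGF-β vs D20 1490 and 1153 against 1210 and 1399, in D20 vs D1 1389 and 2112 against 1789 and 1668, in the difference 767 and 379 against 428 and 557. Over all genes, 48 lanes as samples gave 3934 calls with TGF-β at D1 and 5205 at D20, 5762 over time with TGF-β and 5934 without it, and 3712 in the difference, against 1271, 2609, 3307, 3457 and 985, and only the groups compared gave 802 in D1+ TGF-β vs D1. Between flasks, the median SD of log2 cpm exceeded that between lanes in 9 of the 10 genes, the exception being ILK (0.045 against 0.060).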
